A study of Mus musculus with 30 samples.

Results

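Heat shock proteins and their DnaJ, CCT and BAG partners were followed in mouse microglia through development, after maternal immune activation and after depletion and repopulation of the cells. The members were taken by gene symbol alone: the Hsp families a, b, d, e, h and 90, all Dnaj genes, the chaperonin subunits Cct2 to Cct8, and Bag1 to Bag6. This gave 89 transcripts of 79 gene symbols, out of 14225 transcripts in the table. Of 89 protein-coding RefSeq genes with such symbols, 79 had a row and 10 did not (Bag1, Cct6b, Cct8l1, Dnajb8, Dnajc5b, Dnajc5g, Dnajc22, Dnajc28, Hspa13 and Hspb2), and these 10 were not analysed here. The rule also took Hspbap1 and Hspbp1, which bind small heat shock proteins and Hsp70 but are not heat shock proteins themselves. It took Hspb11 as well, a part of the ciliary transport complex IFT-B.

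RNA was measured in 30 libraries of CD11B bead-isolated whole-brain microglia from C57BL/6J offspring, 3 libraries in each of 10 groups. Saline and MIA offspring came from dams given saline or poly(I:C), a mimic of viral RNA, during pregnancy, and were collected at E17, P7, P20 and P60. At P60, CTRL animals had eaten control chow, and MG-REP animals had first eaten chow with the CSF1R inhibitor PLX5622, which depletes microglia, and then control chow while the cells returned. A library held 1 litter at E17, 3 pooled brains at P7 and 1 brain at P20 and P60, of either sex. CSF1R and the bead marker CD11B are also carried by other myeloid cells.

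Molecular chaperones keep proteins from aggregating and help them to fold. Hsp70 proteins bind exposed stretches of a client in a cycle driven by ATP, DnaJ (Hsp40) proteins bring the client and start the cycle, and Hsp110 and BAG proteins release the nucleotide. Hsp90 completes the folding of kinases and steroid receptors, the CCT (TRiC) ring folds actin and tubulin, Hspd1 and Hspe1 form the chaperonin of mitochondria, and Hspa5 and Hsp90b1 serve the endoplasmic reticulum (ER). Part of the family is made at all times, and part is switched on by heat shock factor HSF1 under stress, including the handling of cells after removal from tissue, together with immediate early genes such as Fos.

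The library sums of TPM (a transcript level corrected for transcript length and for library size) were 995495 to 998012, and the steps between low TPM gave an estimated 7990000 to 12780000 counted reads per library. Among cell markers, the 7 microglial genes were present in every library, with a summed level of 16290 to 51120 TPM. Markers of other cells with a row in the table were present too: 28.9 to 1157 TPM for neurons (Snap25 was at 0 in some libraries), 57.8 to 4726 for oligodendrocytes, 85.4 to 1073 for astrocytes (Plcd4, Gdpd2, Aqp4 and Aldoc at 0 in some), 265 to 2944 for endothelium, 415 to 12170 for ependyma and choroid plexus (Tmem212 and Ccdc153 at 0 in some), 195 to 1935 for border macrophages (Cd163 at 0 in some), and 83.2 to 4025 for monocytes and neutrophils. Xist, which is transcribed from the inactive X chromosome, was 0.29 TPM or less in 4 P60 CTRL libraries (Saline 2 and 3, MIA 2 and 3) and at least 80.1 TPM in the other libraries, so all MG-REP libraries were high in Xist and only some CTRL libraries were. In bulk RNA, fewer cells of a type and less RNA per cell cannot be told apart.

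Promoter sequence shows which members carry the letters that HSF1 and the ER stress factors are known to read. Motifs were searched on both strands in RefSeq windows of GRCm38.p6 that reach from 250 bases before to 50 after a start site, of which 87 belonged to 67 member genes and 32851 to all genes. The heat shock element with 2 units, GAANNTTC, was in 14.9% of member windows and 6.69% of all windows, and its other arrangement, TTCNNGAA, in 10.3% and 7.17%. The 3-unit form, GAANNTTC followed after any 2 letters by GAA, holds both shorter forms and was in 4.6% of member windows (Dnajb6, Hspd1 and Hspe1) and 0.466% of all. The ER stress element, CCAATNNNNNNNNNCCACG, was in 3.45% of member windows (Dnajc3, Hsp90b1 and Hspa5) and 0.113% of all. The stretches below are printed because the genes they belong to lead the results, with the motif in capitals and the strand of the gene.
Hspa1a, chr17:34972217-34972296, minus strand: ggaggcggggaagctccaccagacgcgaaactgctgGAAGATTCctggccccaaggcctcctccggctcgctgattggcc
Hspa1b, chr17:34959299-34959378, minus strand: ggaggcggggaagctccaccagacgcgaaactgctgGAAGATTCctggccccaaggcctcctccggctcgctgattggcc
Hspb1, chr5:135887776-135887855, plus strand: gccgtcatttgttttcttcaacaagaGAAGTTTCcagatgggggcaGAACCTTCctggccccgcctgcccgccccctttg
Hspe1, chr1:55088028-55088107, plus strand: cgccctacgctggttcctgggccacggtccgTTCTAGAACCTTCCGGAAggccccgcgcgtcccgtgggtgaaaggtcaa
Hsp90b1, chr10:86705525-86705664, minus strand: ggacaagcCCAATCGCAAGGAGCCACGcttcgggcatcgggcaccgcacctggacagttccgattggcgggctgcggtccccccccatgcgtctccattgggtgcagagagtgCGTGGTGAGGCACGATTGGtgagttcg
Hspa5, chr2:34771994-34772073, plus strand: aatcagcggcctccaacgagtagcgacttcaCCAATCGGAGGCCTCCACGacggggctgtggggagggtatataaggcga
Hspa1a and Hspa1b, 10121 bases apart, were identical at 247 of the 250 bases before their start sites. Hspe1 and Hspd1 lie head to head and their annotated ends overlap, so the stretch printed for Hspe1 lies inside the annotated Hspd1 gene. A match is a description of the letters and does not show that a factor was bound.

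The near identity of Hspa1a and Hspa1b extends into the transcripts: 61.3% of the 40-base windows of Hspa1a (the read length) also occurred in Hspa1b, so how reads were split between them is uncertain, and their sum is given beside each. For 29 of 89 members over 10% of such windows were shared with another gene, among them Hspa8 (77.2%), Hspa1l (71.6%), Hspb1 (63.0%), Hsp90aa1 (60.6%), Dnaja4 (52.0%, with its neighbour Wdr61), Hspe1 (51.7%) and Hspd1 (49.6%). The genes of 39 members overlap another gene, and the libraries were not stranded. Members of genes with 1 RefSeq isoform had a median level of 60.6 TPM, and those with 2 or more had 11.2 TPM (all transcripts: 25.5 and 6.26 TPM). Hspa5, an abundant ER chaperone with 2 RefSeq isoforms, was listed at 2.21 to 7.31 TPM, and its level is therefore uncertain.

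The members made up 0.727% to 1.17% of the TPM of a group. The highest were the constitutive cytosolic Hsp90ab1 (group means 1139 to 2592 TPM), the ER paralogue Hsp90b1 (1024 to 1593 TPM), Hspa8 (393 to 740 TPM) and Cct2 (239 to 610 TPM). At least 100 TPM on average was reached by 22 transcripts, 6 were under 1 TPM, and 4 (Hspb9, Hspb7, Dnajc6 and Dnajb7) were at 0 in 1 or 2 libraries. The heat-inducible Hspa1a and Hspa1b rose during development, from group means of 11.7 to 31.4 TPM at E17 to 519 to 1038 TPM in P60 CTRL.

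**Figure D1:**
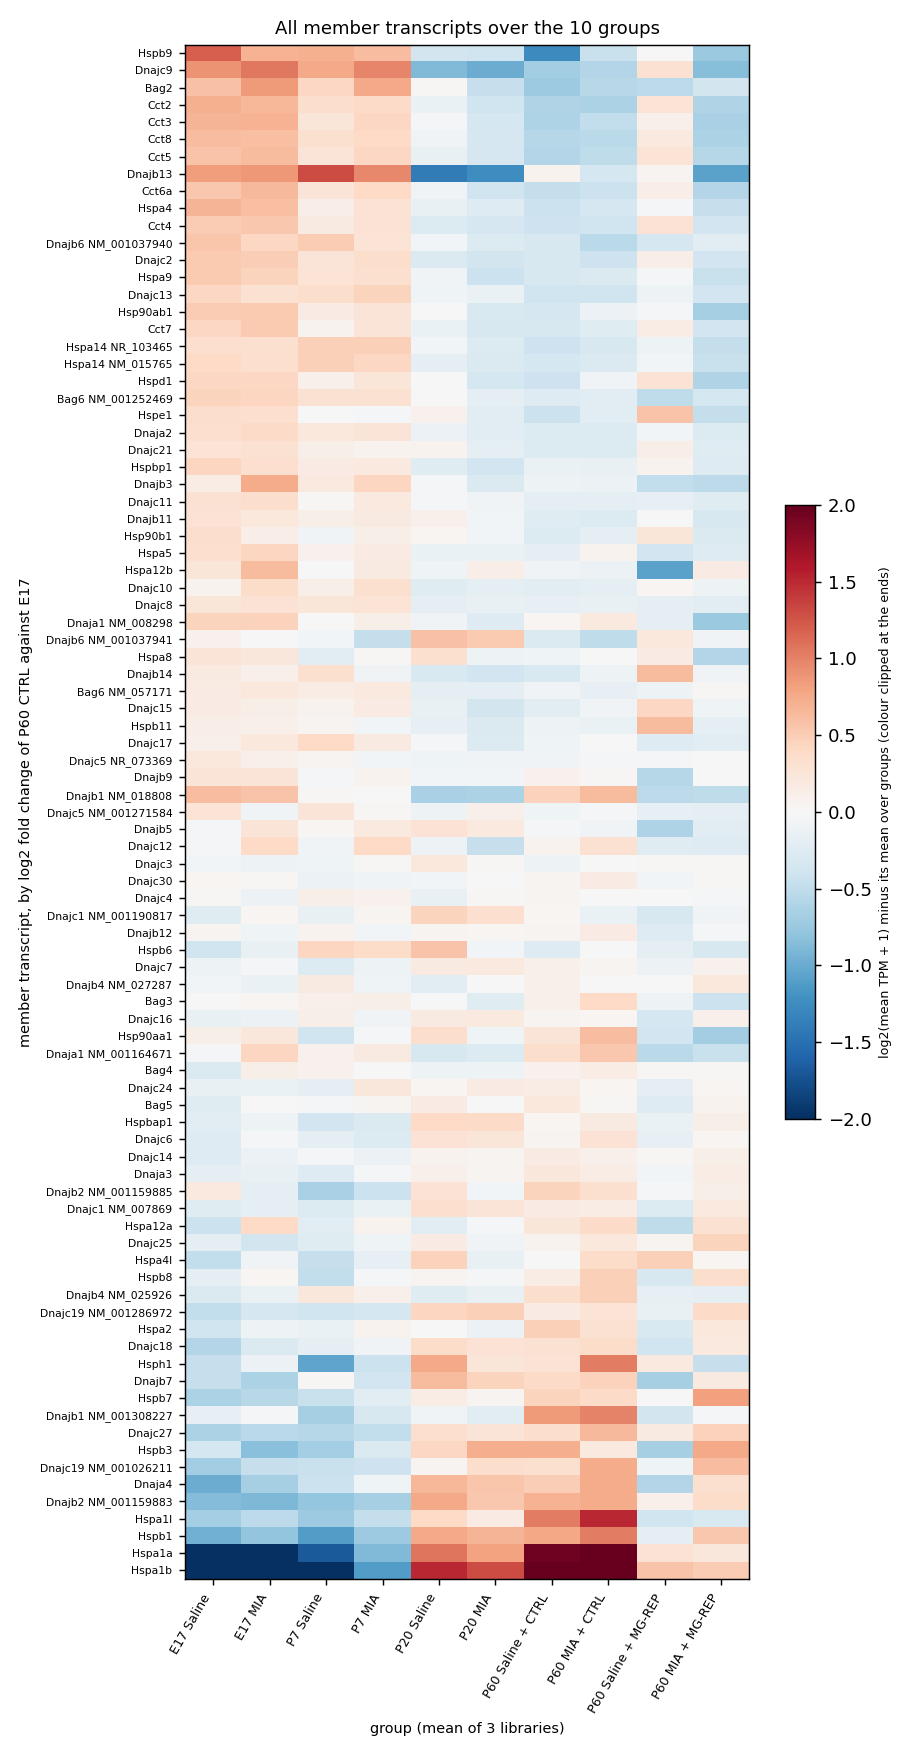
All 89 member transcripts (rows, ordered by the change from E17 to P60 CTRL) in the 10 groups (columns). Colour gives log2 of the mean TPM plus 1, minus the mean of the row over groups. The upper rows, with all CCT subunits, were high at E17 and P7, and the lowest rows, Hspa1a and Hspa1b, were high from P20 on.

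The first question was how the chaperones changed as microglia matured. Between E17 and P60 CTRL, taking Saline and MIA together, 58 of 89 members (65.2%) passed an adjusted p of 0.05 in limma, 24 higher and 34 lower. The background was 61.7% of all transcripts, 27.5% higher and 34.2% lower, so the share of members called was near that of the whole table. The median log2 fold change was −0.154 for members and −0.0558 for all transcripts. Most of this fell between P7 and P20, where 52 members (21 higher, 31 lower, 58.4%) were called against 50.7% of all. Between E17 and P7, 8 members were called (Hspb6 higher; Hspa4, Hspe1, Cct2, Cct3, Cct4, Cct5 and Cct7 lower), 8.99% against 10.8% of all. Between P20 and P60 CTRL 11 were called (4 higher, 7 lower), 12.4% against 12% of all.

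The largest rises belonged to the stress-inducible Hsp70 pair. Hspa1b (NM_010478, chr17:34956429-34959238) was 17.6, 8.56 and 8.84 TPM in E17 Saline and 8.16, 28.6 and 27.4 TPM in E17 MIA. It was 28.1, 18.7 and 41.7 TPM in P7 Saline, and 17.9, 62.8 and 101 TPM in P7 MIA. It then reached 546, 223 and 366 TPM in P20 Saline and 326, 302 and 355 TPM in P20 MIA, above every younger library. At P60 it was 410, 276 and 1397 TPM in Saline + CTRL and 227, 1475 and 1411 TPM in MIA + CTRL. The log2 fold change was 3.17 ± 0.47 (SE) from P7 to P20 (adjusted p = 5.51e-06) and 5.40 ± 0.47 from E17 to P60 CTRL (adjusted p = 7.30e-10).

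Hspa1a (NM_010479, chr17:34969359-34972156) followed the same course, from 18.2 to 42.3 TPM over the E17 libraries and 33.6 to 104 TPM at P7 to 154 to 386 TPM at P20 and 182 to 1160 TPM in P60 CTRL, with a log2 fold change of 4.15 ± 0.40 from E17 to P60 CTRL (adjusted p = 3.75e-09). Hspa1l, their neighbour in the gene cluster, was 9.74 to 15.5 TPM at E17 and 18.0 to 75.0 TPM in P60 CTRL (1.65 ± 0.30, adjusted p = 3.75e-05). Summed over Hspa1a and Hspa1b, the groups averaged 37.5 ± 7.2 TPM (SD, n = 3) in E17 Saline, 70.6 ± 19.2 in P7 Saline, 663 ± 277 in P20 Saline and 1213 ± 1048 in P60 Saline + CTRL. The size of the last SD came from library 3, at 2417 TPM beside 717 and 505.

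**Figure D2:**
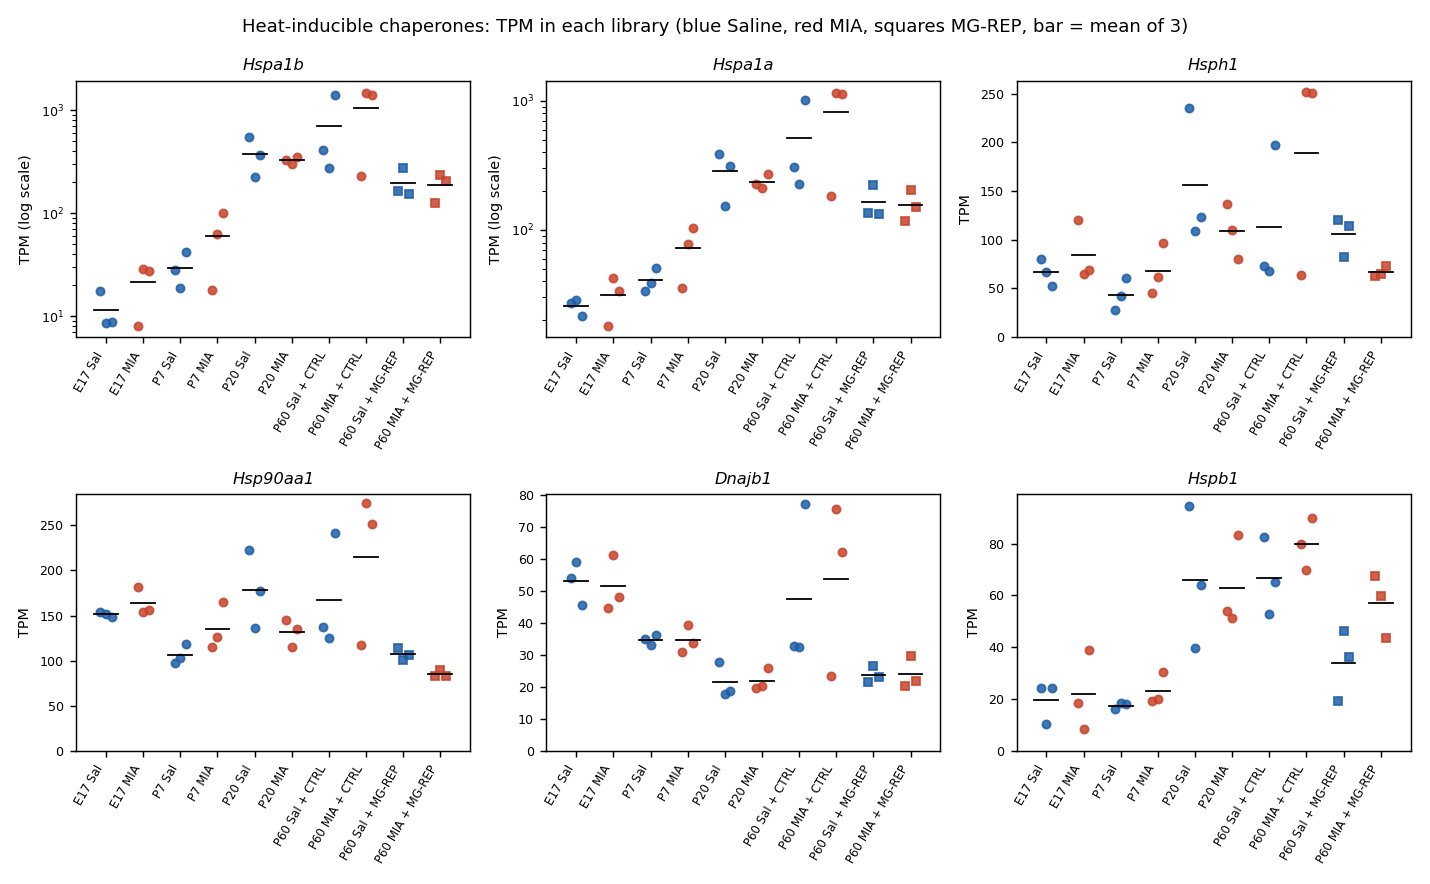
TPM of 6 heat-inducible members in each of the 30 libraries, by group (blue Saline, red MIA, squares MG-REP, bar the mean of 3); the axes of Hspa1b and Hspa1a are logarithmic. Hspa1b and Hspa1a were higher in every P20 library than in any E17 or P7 library, and 3 P60 CTRL libraries stood above the other P60 libraries for each gene but Hspb1.

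Among the P60 CTRL libraries, 3 stood apart from the other 3: Saline + CTRL 3, MIA + CTRL 2 and MIA + CTRL 3. They held 2417, 2635 and 2537 TPM of Hspa1a plus Hspa1b, against 410 to 717 TPM in the other 3, and the ranges did not touch. The same 3 were highest for Hsph1, the Hsp110 partner (197, 252 and 251 TPM against 64.0 to 72.9), Hsp90aa1, the inducible Hsp90 (241, 275 and 252 against 117 to 137), Dnajb1, the J protein of the heat shock response (NM_018808; 77.2, 75.6 and 62.3 against 23.3 to 32.8), Bag3, its autophagy cochaperone (120, 125 and 122 against 58.2 to 76.8), and Hspa1l (69.4, 71.9 and 75.0 against 18.0 to 26.4). Fos was 8694, 8043 and 7879 TPM in them and 3742 to 5378 TPM in the other 3, and Dusp1, an early-response phosphatase, was 4182, 4236 and 4514 TPM against 1568 to 2432 TPM. All 3 were low in Xist, but so was Saline + CTRL 2, which held 276 TPM of Hspa1b. The part of handling, of sex or of any other difference in these levels was not tested.

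**Figure D3:**
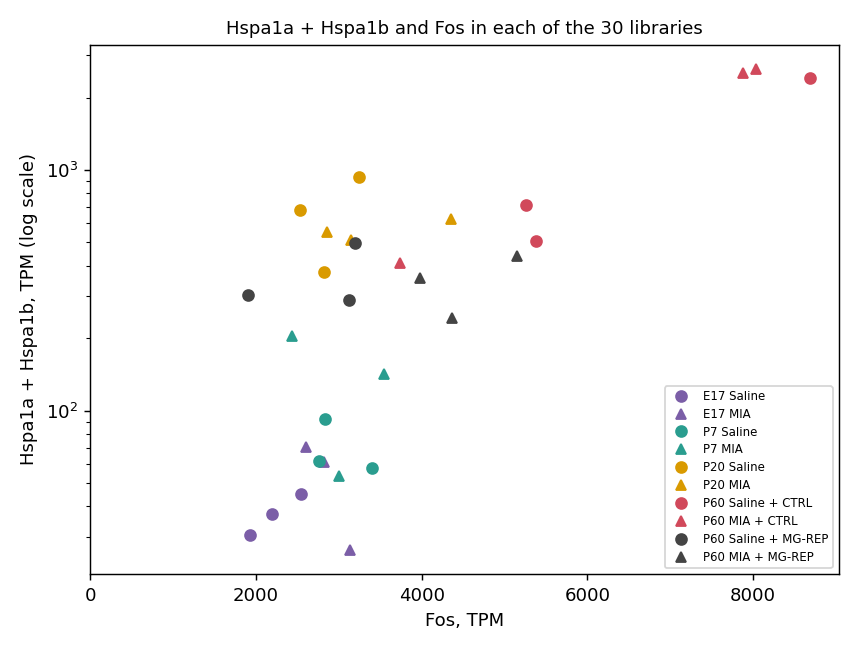
Hspa1a plus Hspa1b (logarithmic axis) against Fos in each of the 30 libraries, both in TPM, coloured by age and chow, with circles for Saline and triangles for MIA. The 3 P60 CTRL libraries at the upper right held 2417 to 2635 TPM of the pair at 7879 to 8694 TPM of Fos, while P20 libraries held 378 to 932 TPM of the pair at 2535 to 4359 TPM of Fos.

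Without these 3 libraries (a choice made after the values were seen, which leaves 1 MIA + CTRL library that is assumed to vary like the rest), the rise of Hspa1b from E17 to P60 CTRL was 4.17 ± 0.46 (adjusted p = 2.19e-07) and that of Hspa1a was 2.95 ± 0.33 (adjusted p = 2.34e-07). Between P20 and P60 CTRL the pair then differed by −0.30 and −0.18 (adjusted p = 0.716 and 0.759), where all libraries had given 0.93 and 1.02 (adjusted p = 0.220 and 0.101). Other inducible members depended on them. Hsph1 went from 0.78 (adjusted p = 0.0364) from E17 to P60 CTRL to −0.12 (adjusted p = 0.758). Hsp90aa1 went from 0.19 (adjusted p = 0.344) to −0.34 (adjusted p = 0.0322), and Dnajb1 (NM_018808) from −0.18 (adjusted p = 0.502) to −0.89 (adjusted p = 6.72e-05). The calls of both Dnajb1 transcripts between P20 and P60 CTRL (log2 1.06 and 1.02) were lost (adjusted p = 0.150 and 0.176). In all, 54 members were then called from E17 to P60 CTRL (18 higher, 36 lower, against 54.3% of all transcripts), 48 of them in both analyses.

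Small heat shock proteins, which hold unfolded proteins without ATP, also changed with age, but not in 1 direction. Hspb1 (Hsp25) was 8.54 to 39.0 TPM at E17, 16.0 to 30.2 at P7, 39.6 to 94.8 at P20 and 52.7 to 90.1 in P60 CTRL, and the older libraries lay above all younger ones. Its log2 fold change from E17 to P60 CTRL was 1.93 ± 0.29 (adjusted p = 3.23e-06), and it was 1.93 without the 3 libraries as well (adjusted p = 0.000272). Hspb3, known from muscle, rose by 1.06 ± 0.22 (adjusted p = 0.000229), and Hspb7, at low levels, by 0.98. Hspb9 fell by 1.83 ± 0.22 on the log2 scale, from 2.96 to 7.83 TPM at E17 to 0 to 2.25 TPM in P60 CTRL (adjusted p = 1.95e-07). Of the 7 members numbered as Hspb genes, 3 rose and 1 fell. They include Hspb11, which was not called (−0.25, adjusted p = 0.162).

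The CCT ring declined with age. All 7 subunits measured fell from E17 to P60 CTRL, by 0.75 (Cct7) to 1.31 (Cct2) on the log2 scale, with a median of −1.15. Cct2 (NM_007636, chr10:117050997-117063852) was 598, 617 and 615 TPM in E17 Saline, 465, 488 and 471 in P7 Saline, 314, 298 and 407 in P20 Saline and 245, 249 and 242 in P60 Saline + CTRL. The groups were in order of age with no overlap, and its fall was −1.31 ± 0.08 (adjusted p = 1.12e-12). Cct5 fell from 481, 494 and 478 TPM in E17 Saline to 217, 218 and 211 TPM in P60 Saline + CTRL (−1.15 ± 0.09, adjusted p = 9.00e-11). Summed over the 7, the level went from 2857 ± 37 TPM (SD, n = 3) in E17 Saline to 2262 ± 200 at P7, 1739 ± 236 at P20 and 1319 ± 19 in P60 Saline + CTRL. Tcp1, the alpha subunit that the symbol rule does not take, fell by 1.28 on the log2 scale (adjusted p = 2.00e-08). All 7 subunits fell under every alternative tried, with medians of −1.08 to −1.22 in those that kept all libraries.

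Other constitutive members fell as well. Hsp90ab1 went from 2548, 2568 and 2568 TPM in E17 Saline to 1282, 1281 and 1726 in P60 Saline + CTRL (−0.76 ± 0.10, adjusted p = 8.47e-07). Hspa4, an Hsp110 exchange factor, fell by 1.03, Hspa14, which acts at the ribosome, by 0.69, and Dnaja2, another J protein partner of Hsp70, by 0.64. In contrast to Hspa1a and Hspa1b, the constitutive Hspa8 was 663 to 745 TPM at E17 and 347 to 715 TPM in P60 CTRL, and its difference of −0.34 ± 0.15 missed the threshold (adjusted p = 0.0570), but passed it without the 3 libraries (−0.75, adjusted p = 0.000256).

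Among 10 transcripts of mitochondrial chaperones, 5 fell and 3 rose. Hspa9 (mortalin) fell by 0.79 ± 0.08 on the log2 scale, Hspd1 (Hsp60) by 0.68 ± 0.14 and Hspe1 (Hsp10) by 0.67 ± 0.10, with adjusted p of 2.20e-08, 0.000133 and 1.78e-06. Hspe1 was 150, 149 and 146 TPM in E17 Saline and 76.3, 77.0 and 105 TPM in P60 Saline + CTRL. Both transcripts of Dnajc19, a part of the mitochondrial import motor, rose (1.11 and 0.60). In the ER group, 5 of 13 transcripts fell and 4 rose. Hsp90b1 fell by 0.48 ± 0.10 (adjusted p = 0.000256) and Hspa5 by 0.48 ± 0.19 (adjusted p = 0.0276), while Dnajc3, the third gene with an ER stress element, was at 124 TPM at E17 and 126 TPM in P60 CTRL and was not called (0.03 ± 0.06).

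Among DnaJ proteins the course was divided. Dnajc9, a histone chaperone of dividing cells, was 69.5 to 122 TPM over E17 and P7 and 22.1 to 33.3 TPM over P20 and P60 CTRL, with no overlap (P7 to P20 −1.80 ± 0.12, adjusted p = 2.27e-11). Dnajb13, known from cilia and sperm, was 24.0 to 89.7 TPM over E17 and P7, 3.50 to 11.3 TPM at P20 and 7.19 to 35.9 TPM in P60 CTRL. It fell by 2.44 ± 0.30 from P7 to P20 (adjusted p = 5.06e-07), while 10.4% of its windows were shared with its neighbour Ucp2. Markers of ependyma and choroid plexus, where ciliated cells sit, summed to 1298 to 12170 TPM over E17 and P7 and 3090 to 7079 TPM at P20. Their part in the level of Dnajb13 was not tested.

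The J proteins that rose included Dnajb2, which is known to be high in neurons (NM_001159883; 1.57 ± 0.17, adjusted p = 3.42e-08), Dnaja4 (1.47 ± 0.18, adjusted p = 2.74e-07) and Dnajc27 (1.05 ± 0.17, adjusted p = 1.38e-05). Dnaja4 was 10.99 to 20.29 TPM at E17 and 35.7 to 47.1 TPM in P60 CTRL, and Dnajb2 averaged 5.38 and 18.3 TPM. The transcripts of Dnajb6, an inhibitor of aggregation, moved apart from P7 to P20: NM_001037941 rose by 0.83 ± 0.16 and NM_001037940 fell by 0.55 ± 0.11 (adjusted p = 0.000129 and 0.000187). Of their 40-base windows, 31.5% and 44.0% also occurred in other genes. Dnajb6 has 7 RefSeq isoforms, so how reads were split between its transcripts is uncertain. From P20 to P60 CTRL, Dnajb6 NM_001037941 fell by 0.96 ± 0.16 (adjusted p = 0.000346). Dnaja1, a general partner of Hsp70 (NM_001164671), rose by 0.72 ± 0.21 (adjusted p = 0.0299). Its other transcript, NM_008298, was not called (0.22, adjusted p = 0.499). The rise of Dnaja1 depended on the P60 CTRL libraries that stood apart. Without them the values were 0.28 for NM_001164671 and −0.33 for NM_008298, and −0.99 for Dnajb6 NM_001037941. Of 5 BAG genes, Bag2, an inhibitor of the ubiquitin ligase CHIP, fell most (−1.38 ± 0.17, adjusted p = 2.66e-07), and Bag3 was at 0.17 ± 0.15 (adjusted p = 0.323).

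The genes outside the symbol rule moved as follows. Of 26 further cochaperones and heat shock factors, 17 fell and 1 rose from E17 to P60 CTRL, with a median of −0.37. St13 (Hip) fell by 0.93 and Stip1 (Hop), which joins Hsp70 to Hsp90, by 0.86, with 9 of the 26 lower when Xist was a covariate. Hsf1 itself was at 0.08 ± 0.10 (adjusted p = 0.532). Of 19 transcripts of the unfolded protein response, 10 fell and 3 rose. Some of the 19 are also among the 26, so these counts are not separate. Of 12 immediate early genes, 8 rose and 2 fell, among the former Jun (2.10) and Fos (1.31). All 9 mitotic genes fell, with a median of −4.79.

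The second question was whether MIA changed the chaperones. No member passed in limma at any age, and neither did any other transcript: the background was 0% at E17, 0% at P7, 0% at P20 and 0% at P60 CTRL. At an unadjusted p under 0.05 there were 2, 1, 6 and 1 members (2.25%, 1.12%, 6.74% and 1.12%), where all transcripts gave 4.11%, 2.36%, 3.21% and 1.8%. The median log2 difference of the members was 0.0292, 0.1, −0.0907 and 0.0608, beside 0.0979, 0.0324, −0.0467 and 0.0262 for all transcripts.

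By unadjusted p, most of these values were at P20. Hspa9 was 178, 180 and 253 TPM in Saline and 155, 155 and 166 TPM in MIA (−0.34 ± 0.12, unadjusted p = 0.00960, adjusted p = 1.00). Hspe1 was 117, 118 and 137 TPM in Saline and 111, 87.4 and 100 TPM in MIA (−0.31 ± 0.14), and Cct2 was 314, 298 and 407 TPM against 280, 279 and 288 TPM (−0.25 ± 0.11). The groups did not overlap for these 3 genes. They were picked for the smallest unadjusted p at P20, and the share of all transcripts without overlap is not given here. At E17 the smallest unadjusted p belonged to Dnajc5 (NM_001271584, −0.35 ± 0.14, under 1 TPM) and Hspa12a (0.78 ± 0.37). At P7 it belonged to Dnajb14 (−0.34 ± 0.16), and at P60 to Hspb9 (0.82 ± 0.32), whose levels were 0.41, 0.76 and 0 TPM in Saline + CTRL and 1.36, 0.77 and 2.25 TPM in MIA + CTRL. At P7, Hspa1b was 17.9, 62.8 and 101 TPM in MIA and 28.1, 18.7 and 41.7 TPM in Saline, and the groups overlapped.

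The third question was what repopulation left behind in control offspring. Between Saline + MG-REP and Saline + CTRL, 33 members (37.1%) were called, 19 higher and 14 lower, against 26.7% of all transcripts (11.9% higher, 14.9% lower). The members that rose included the CCT ring, the mitochondrial pair Hspd1 and Hspe1, Dnajc9 and Hsp90b1. The members that fell were led by Hspb3, Hspa1l, Dnajb1 and Dnaja4. Without Saline + MG-REP library 1, 19 members were called (13 higher, 6 lower), all 19 among the 33, against 17.3% of all transcripts.

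All 7 CCT subunits were higher in Saline + MG-REP, by 0.45 (Cct7) to 0.86 (Cct2). Cct2 was 574, 390 and 393 TPM, against 245, 249 and 242 TPM in Saline + CTRL (0.86 ± 0.11, adjusted p = 2.11e-06), and Cct5 was 505, 331 and 342 TPM against 217, 218 and 211 TPM (0.84 ± 0.13, adjusted p = 1.70e-05). Library 1 was the highest, and libraries 2 and 3 lay well above every CTRL library. The sum over the 7 was 2882, 1850 and 1881 TPM, against 1327, 1297 and 1333 TPM. Without library 1 the median rise went from 0.69 to 0.50, and 6 of 7 remained called, all but Cct6a. With the compared groups alone, 3 of 7 were called. Tcp1 rose too (0.82, adjusted p = 0.00239).

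Hspe1 was 200, 156 and 161 TPM in Saline + MG-REP and 76.3, 77.0 and 105 TPM in Saline + CTRL (1.00 ± 0.14, adjusted p = 4.23e-06), above its level at E17. Hspd1, its head-to-head neighbour, was 139, 75.0 and 84.6 TPM against 48.9, 53.2 and 80.5 TPM, so the groups overlapped (0.68 ± 0.19, adjusted p = 0.00954). Without library 1 it was no longer called. Dnajc9 was 81.3, 43.7 and 50.5 TPM against 31.4, 31.7 and 23.1 TPM (0.96 ± 0.17, adjusted p = 0.000162). Dnajb14, an ER membrane J protein, was 81.6, 86.6 and 86.2 TPM against 41.5, 44.7 and 45.7 TPM (0.93 ± 0.16, adjusted p = 0.000109), with the highest group mean of all 10 groups. Dnajc15, at the mitochondrial inner membrane, rose by 0.63 ± 0.10, Hspb11, a part of the ciliary transport complex IFT-B, by 0.77 ± 0.22, and Hspb9 by 1.32 ± 0.32. In the ER, Hsp90b1 rose by 0.50 ± 0.14 (adjusted p = 0.0112), but not past the threshold without library 1.

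**Figure D4:**
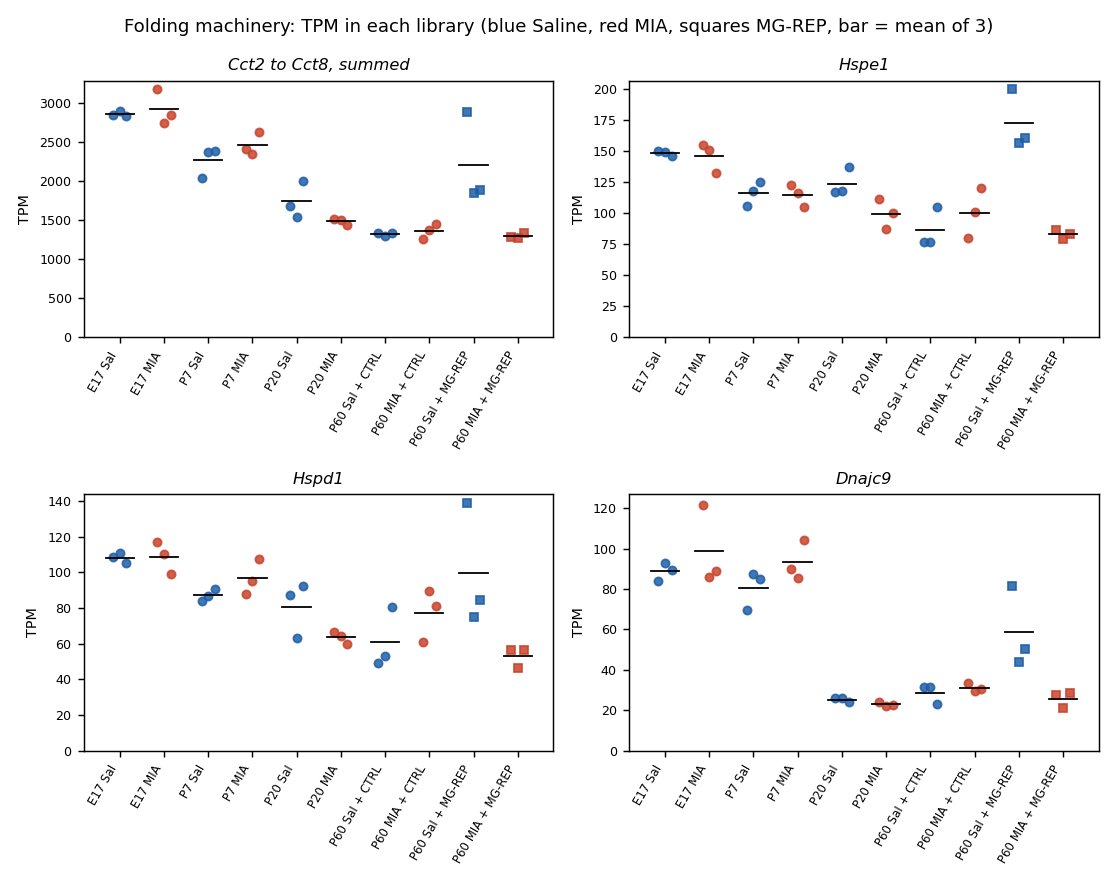
TPM of the summed CCT subunits, Hspe1, Hspd1 and Dnajc9 in each of the 30 libraries, by group (blue Saline, red MIA, squares MG-REP, bar the mean of 3). Levels fell from E17 to P60 CTRL, Saline + MG-REP library 1 was the highest P60 library in each panel, libraries 2 and 3 lay above all CTRL libraries except for Hspd1, and the 3 MIA + MG-REP libraries were at the level of P60 CTRL or below.

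These rises stood beside other shifts in the same libraries. All 9 mitotic genes were higher in Saline + MG-REP (median 3.70). Mki67 was 234, 93.9 and 82.9 TPM, against 2.77 to 3.84 TPM in Saline + CTRL, and library 1 was again the highest. Of 7 microglial markers, 6 were lower. Their sum was 24900 to 28370 TPM, against 35290 to 51120 TPM in Saline + CTRL. Monocyte and neutrophil markers summed to 83.3 to 4025 TPM, against 584 to 712 TPM (1 higher, 1 lower of 5), and the highest level was in library 2, with 2754 TPM of S100a8. Border macrophage markers summed to 597 to 1185 TPM, against 332 to 436 TPM (1 higher, 1 lower of 5), with Cd163 at 0 in libraries 1 and 2. The part of these cells, and of the number of dividing cells, in the chaperone levels was not tested.

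Lower in Saline + MG-REP were a small heat shock protein, Hspa1l and several J proteins. Hspb3 was 8.57, 13.9 and 11.9 TPM, against 29.7, 27.5 and 38.0 TPM (−1.40 ± 0.31, adjusted p = 0.00154), and Dnaja4 was 8.27, 19.2 and 23.2 TPM, against 35.7, 37.4 and 37.4 TPM (−1.19 ± 0.26, adjusted p = 0.00121). Both remained called without the 3 CTRL libraries named above. Hspa1l (−1.28, adjusted p = 0.0245) and both Dnajb1 transcripts (−1.20 and −0.86) did not (adjusted p = 0.0581, 0.0516 and 0.0935). Hspa1b was 165, 275 and 153 TPM and Hspa1a was 136, 225 and 134 TPM, below each of their CTRL libraries, with differences of −1.50 ± 0.66 and −1.37 ± 0.56 (adjusted p = 0.102 and 0.0756). Without the 3 libraries these were −0.81 and −0.73 (adjusted p = 0.314 and 0.206). Dnajb7 (−1.04), Dnajc18 (−0.72), Dnajb9 (−0.66), Dnajb5 (−0.60) and Bag5 (−0.49) were lower as well, and so was Dnaja1 (NM_001164671, −0.89). Of these, Bag5 and Dnaja1 were not called without the 3 libraries (adjusted p = 0.0622 and 0.144). Of 12 immediate early genes, 9 fell and 1 rose, among the former Jun (−1.76) and Fos (−1.23). Those that fell numbered 2 with Xist as a covariate, 3 with the compared groups alone, 5 with median-ratio scaling, and 6 without Saline + CTRL library 3 or Saline + MG-REP library 1.

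Of 26 further cochaperones and heat shock factors, 8 rose, with Stip1 at 0.71 (adjusted p = 0.00362), Ahsa1, an activator of Hsp90, at 0.42 (adjusted p = 0.0312) and Fkbp5, a steroid receptor cochaperone, at 1.33 (adjusted p = 0.0131). Of 19 transcripts of the unfolded protein response, some of them also among the 26, 8 rose and 3 fell. Sdf2l1 was at 0.99, Creld2 at 0.80, Pdia4 at 0.63 and Manf at 0.55. Without library 1, 4 of the 26 and 3 of the 19 were called higher, and with the compared groups alone 1 of each. Median-ratio scaling gave 14 of the 26.

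In MIA offspring the same treatment gave 1 call among the members, against 0.555% of all transcripts (0.387% higher, 0.169% lower). Hsp90aa1 was 83.1, 89.9 and 83.1 TPM in MIA + MG-REP and 117, 275 and 252 TPM in MIA + CTRL (−1.23 ± 0.24, adjusted p = 0.0117). The call was lost without MIA + CTRL library 2 or 3, or MIA + MG-REP library 1 or 3. Each time 0 members were called, against 0.288% to 0.366% of all transcripts. Without all 3 libraries that stood apart, which leaves 1 MIA + CTRL library, the difference was −0.46. Without MIA + CTRL library 1, 10 members were called, all lower, against 0.499% of all transcripts. That choice kept only MIA + CTRL libraries 2 and 3, which stood apart as high in inducible members, so this count is no separate result. At an unadjusted p under 0.05 there were 16 members (18.0%), against 6.2% of all transcripts. They included inducible members that were high in MIA + CTRL libraries 2 and 3. Without all 3 libraries that stood apart, Hspa1a went from −2.015 to −0.254, Hspa1l from −1.562 to −0.247 and Hsph1 from −1.248 to 0.0558. Dnajc12 (−0.575 to −0.725) and Dnajb12 (−0.214 to −0.207) kept their size. The count of 16 therefore leans on the libraries that stood apart and is no broad result about the members.

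Hspa1b was 127, 235 and 205 TPM in MIA + MG-REP, inside the range of MIA + CTRL (227 to 1475 TPM) for 1 library, and differed by −2.09 ± 0.66 (adjusted p = 0.286). Without the 3 libraries it differed by −0.32 ± 0.72 (adjusted p = 0.863). None of the 7 CCT subunits passed in limma, and 0 had an unadjusted p under 0.05. Cct2 was 243, 243 and 248 TPM in MIA + MG-REP and 224, 242 and 251 TPM in MIA + CTRL, a difference of 0.04. None of the 9 mitotic genes passed either (0 at an unadjusted p under 0.05), and Mki67 was 2.50 to 3.16 TPM against 2.45 to 3.43 TPM.

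**Figure D5:**
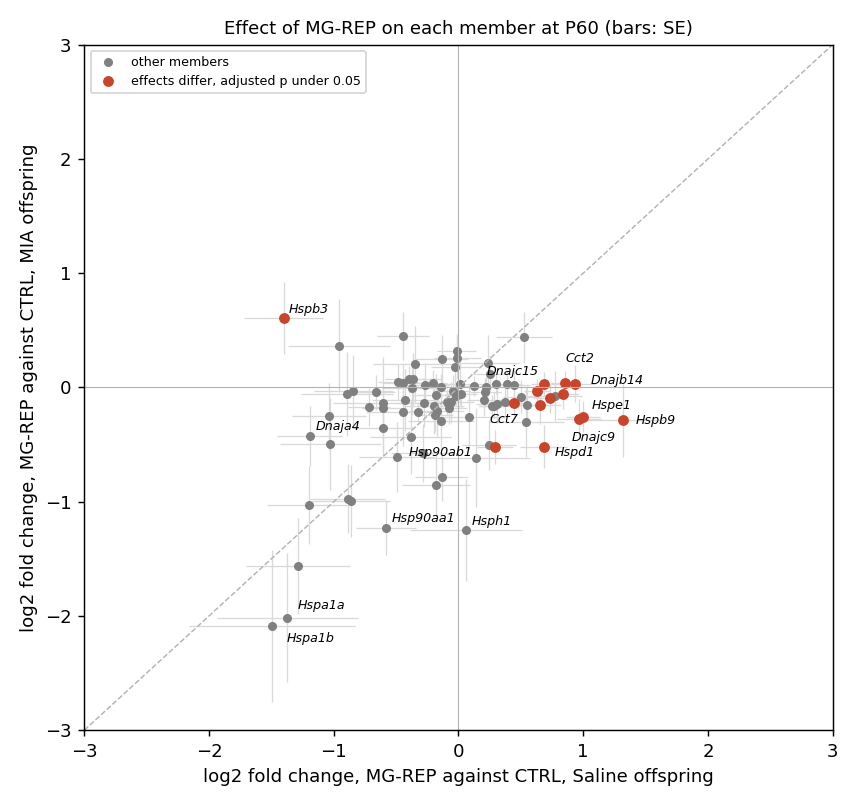
Log2 fold change of MG-REP against CTRL for the 89 members in Saline (x) and MIA offspring (y), with bars of 1 SE; the dashed line marks equal effects, and red points are the 14 members whose effects differed. The CCT subunits, Hspe1, Hspd1 and Dnajc9 lay at 0.45 to 1.00 on x and at or below 0.04 on y, and Hspa1a and Hspa1b were low on both axes.

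The last question was whether repopulation acted differently in Saline and MIA offspring, which the interaction tested directly. The effect differed for 14 members, 13 lower and 1 higher in MIA, against 10.5% of all transcripts (4.42% higher, 6.09% lower). They were 6 of 7 CCT subunits (all but Cct6a), Hspe1, Hspd1, Dnajc9, Dnajc15, Dnajb14, Hsp90ab1 and Hspb9, and, in the other direction, Hspb3. Hspe1 had 1.00 in Saline and −0.26 in MIA, a difference of −1.26 ± 0.19 (adjusted p = 9.14e-05). Hsp90ab1, at 0.30 and −0.52, differed by −0.82 ± 0.21 (adjusted p = 0.0105) though neither effect was called in its own. Hspb3, at −1.40 and 0.61, differed by 2.01 ± 0.44 (adjusted p = 0.00391).

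Without the 3 CTRL libraries that stood apart, 4 of the 14 kept a difference (Hspe1, Hspd1, Dnajc9 and Dnajb14, against 5.01% of all transcripts), and no CCT subunit passed in limma, though all 7 differences were negative, with a median of −0.66 where all libraries gave −0.81. That comparison has 1 MIA + CTRL library. Without MIA + CTRL library 1, 22 members differed (2 higher, 20 lower), against 8.93% of all transcripts. The MIA + CTRL libraries kept there were both among the 3 that stood apart, so this count is no counterweight to the one without those 3.

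Compared side by side, MIA + MG-REP and Saline + MG-REP differed for 31 members, 9 higher and 22 lower in MIA, against 22% of all transcripts (10.9% higher, 11% lower). These 2 groups share no library with CTRL. The 22 included all 7 CCT subunits (median −0.69), Hspe1 (−1.04 ± 0.14, adjusted p = 3.89e-06), Dnajc9 (−1.12 ± 0.17), Hspd1 (−0.85), Hspb11 (−0.84), Dnajb14 (−0.71) and, beyond those above, Hspa8, at 354, 430 and 395 TPM in MIA against 821, 555 and 597 TPM (−0.72 ± 0.22, adjusted p = 0.0178), Hsp90ab1 (−0.61), Hspa9 (−0.41) and Hspa14 (NM_015765, −0.37). Higher in MIA were Hspb3 (31.9, 33.6 and 32.6 TPM against 8.57, 13.9 and 11.9; 1.46 ± 0.31, adjusted p = 0.00146), Hspa12b, an endothelial Hsp70 relative (87.1, 76.2 and 66.8 against 23.5, 36.0 and 37.5; 1.24 ± 0.41, adjusted p = 0.0303), and Dnaja4 (1.03). Endothelial markers summed to 265 to 550 TPM in Saline + MG-REP and 782 to 1026 TPM in MIA + MG-REP, with 3 of 6 transcripts called higher in MIA. Their part in the level of Hspa12b was not tested. Without Saline + MG-REP library 1, 16 members differed (3 higher, 13 lower), among them 6 CCT subunits, and Hspa8, Hspa9 and Hspa12b did not (adjusted p = 0.141, 0.179 and 0.163).

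The authors sorted all transcripts into 5 modules by their course over these same samples. Of the members, 37 (41.6%) lay in the Immature Microglia module, which holds 32.9% of all transcripts, 22 (24.7%) in Adult Microglia (23%), 17 (19.1%) in Juvenile Microglia (16.3%), 9 (10.1%) in MIA Immature Microglia (19.8%) and 4 (4.49%) in Repopulated Adult Microglia (7.97%). The modules were made from the values described here and are no separate measurement.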

How the data were processed

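The authors isolated CD11B+ cells, made non-stranded poly(A) libraries, aligned the 40-base reads to mm10 (Rsubread), assigned them to UCSC transcripts (featureCounts), applied a CPM filter and tested counts in edgeR. The versions are not given in the sources used here. The values deposited by the authors are TPM for 14225 transcripts, without counts, so no count model was fitted. TPM was analysed as log2(TPM + 1) with limma 3.58.1 in R 4.3.3 (trended empirical Bayes, 10 group means, 12 comparisons), with Benjamini-Hochberg adjustment over 14225 transcripts and a threshold of 0.05. This scale understates changes of low transcripts. Comparisons of ages average Saline and MIA. Errors of fold changes are SE, those of levels SD. The test was checked on simulated data.

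Groups came from the labels, which do not tie libraries to litters or batches, so p-values measure the spread between these libraries, 3 per group. The members and gene lists were chosen with earlier results of these data known, and list counts are descriptions. Named were fixed sets (inducible and constitutive chaperones, CCT), the 5 largest called rises and falls without overlap per comparison, or the 3 smallest p where none was called. Further members are examples of their class, chosen after their values were seen. Depth came from the steps between low TPM, of which 76.3% to 83.8% came within 0.2 reads of a whole number (evenly spread values would give 40%), too few for a count test on recovered reads. Positions, promoters and isoform numbers are from RefSeq GRCm38.p6, the mm10 build (88 of 89 members matched). Alternatives were another pseudocount, a TPM minimum, median-ratio scaling, a replicate block, fewer groups, Xist as a covariate and left-out libraries.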

Additional observations from a re-analysis of the deposited data

Results flagged for a closer look

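The effect of MG-REP differed between MIA and Saline offspring for 14 members, by the interaction test in limma (adjusted p under 0.05). It differed for 10.5% of all transcripts. On the log2 scale, MIA minus Saline, the difference was −1.61 for Hspb9, −1.26 for Hspe1, −1.24 for Dnajc9, −1.20 for Hspd1, −0.90 for Dnajb14, −0.90 for Cct5, −0.83 for Cct8, −0.82 for Cct2, −0.82 for Hsp90ab1, −0.81 for Cct3, −0.66 for Dnajc15, −0.66 for Cct4, −0.59 for Cct7 and 2.01 for Hspb3. Adjusted p ran from 9.14e-05 (Hspe1) to 0.0221 (Cct3). In making this list, groups of 3 were not searched by a rule for single outlying libraries. The differences use all libraries, including the 3 P60 CTRL libraries that stood apart. Fewer members passed without those 3, as given above, in a comparison with 1 MIA + CTRL library.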

How the results depend on the processing

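Counts of members called were within 1.5 times the reported ones under a pseudocount of 0.1, a mean TPM of at least 1 and the replicate block. Median-ratio scaling gave 6 calls from P20 to P60 CTRL, and Xist as a covariate gave 2. With the compared groups alone, 13 members were called between Saline + MG-REP and Saline + CTRL, 19 between MIA and Saline MG-REP and 0 between MIA + MG-REP and MIA + CTRL. The last was also 0 with the Xist covariate and 0 without the 3 high CTRL libraries, where the interaction gave 4. Leaving out the 3 libraries was chosen after seeing the data. Leaving out 1 library gave 4 (without P7 Saline 1) to 9 calls from E17 to P7, with 5 without E17 Saline 1 or 2 or P7 MIA 2, 7 (without P20 MIA 1 or 2) to 13 from P20 to P60 CTRL, 19 (without Saline + MG-REP 1) to 36 for MG-REP in Saline, 0 to 10 in MIA offspring, 12 to 22 for the interaction (22 without MIA + CTRL 1) and 16 (without Saline + MG-REP 1) to 33 between the MG-REP groups. The share of all transcripts called moved too. From E17 to P7 it was 8.58% without P7 Saline 1 (10.8% with all libraries). From P20 to P60 CTRL it was 8.75% and 8.59% without P20 MIA 1 or 2 (12%). Without Saline + MG-REP 1 it was 17.3% for MG-REP in Saline (26.7%) and 12.2% between the MG-REP groups (22%). Without MIA + CTRL 1 it was 8.93% for the interaction (10.5%). Leaving out MIA + CTRL 1 kept only MIA + CTRL 2 and 3, which are among the 3 high CTRL libraries. Shares under the other settings of this paragraph are not given here. The causes were not tested.

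Of 2402 recomputed values of 151 named results, 2178 kept direction and side of the threshold, 181 lost the call, 25 gained it and 18 changed sign. From E17 to P60 CTRL, the Xist covariate gave −0.0871 for Hsph1, −0.30 for Hsp90aa1 and −0.13 for Bag3, and without the 3 libraries they were −0.12, −0.34 and −0.25. For MG-REP in Saline, Bag3 was 0.20 with the covariate and 0.14 without the 3 libraries, and leaving out 1 library gave −0.37 to 0.14 for Bag3 and −0.20 to 0.55 for Hsph1. Without the 3 libraries, MG-REP in MIA gave 0.0558 for Hsph1 and 0.17 for Hspa8, the interaction 0.47 for Hspa1a and 0.50 for Hspa1b, and MIA + CTRL against Saline + CTRL 0.0023 for Hspb3.

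Median-ratio scaling moved the median of all transcripts by at most 0.0962. It changed the split of members called (higher, lower) from 1 and 7 to 3 and 3 from E17 to P7, from 4 and 7 to 4 and 2 from P20 to P60 CTRL, from 19 and 14 to 24 and 11 for MG-REP in Saline, and from 9 and 22 to 5 and 25 between the MG-REP groups. Labels number libraries 1 to 3 in each group. With the number as a replicate block, 6, 53, 11 and 58 members were called between ages, 35 and 1 for MG-REP in Saline and MIA, 15 for the interaction and 33 between the MG-REP groups. The shares of all transcripts called under median-ratio scaling and the replicate block are not given here. The counts therefore show dependence on the setting and are no result about the members. Deviations of same-numbered libraries correlated at −0.525 to 0.656, over 0.1 in 12 of 21 pairs, so the numbers were not taken as a pairing.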
